A study of Homo sapiens with 6 samples.

Results

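This account describes 56 genes that encode histone modifiers and chromatin remodelers, out of 60676 genes listed for an RNA-seq experiment in Ewing sarcoma cells. The 56 genes were chosen by symbol: 5 subunits of Polycomb repressive complex 2 (PRC2), 15 histone demethylases, 11 histone deacetylases, 4 methyltransferases each for lysine 4, lysine 36 and lysine 9 of histone H3, 9 subunits of the SWI/SNF remodelers, and 4 coactivators and corepressors. All 56 symbols were found once each. Of them, 54 had enough counts to be tested, and KDM5C and HDAC11 were listed at 0 in every library. No member owed its place in the test to only one of the groups, since the lowest count of any of the 54 genes in any library was 129.

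The cells were TC71, a Ewing sarcoma line, in which a lentiviral SMARTvector carried GFP and a doxycycline (Dox) inducible shRNA. The shNTC+Dox group expressed a non-targeting shRNA and the shEHD1+Dox group an shRNA against EHD1, an endocytic recycling protein that the study examined as a driver of tumour growth. Both groups were polyclonal lines selected with puromycin, and both received 0.5 µg/ml Dox for 3 days. The vector, the selection and Dox were thus common to them, while each shRNA was carried by its own line. A difference between the lines or an off-target effect of the shRNA cannot be told apart here from the loss of EHD1. Each group had 3 libraries, the sources used here do not give which EHD1 shRNA was expressed, and nothing states that the 3 libraries came from separate cultures, so the p-values measure only the spread between these samples. The total count per library was 22711235 to 28203023 in shNTC+Dox and 24150135 to 30582187 in shEHD1+Dox, and the common biological coefficient of variation was 14.97%. EHD1 itself stood at 27.1, 28.0 and 26.4 CPM (counts scaled to a common library size) in the control libraries and at 7.55, 7.15 and 9.37 CPM in the knockdown libraries, 29.6% of control (log2 fold change -1.76, SE 0.12, edgeR adjusted p = 1.35e-04). All 12 Ewing sarcoma markers passed the filter on low counts and 4 of them were called (33.3%), beside 17.3% of all genes. CD99 rose by 0.33 on the log2 scale and BCL11B, STEAP1 and PAX7 fell, with log2 fold changes of -0.75, -0.43 and -0.38. Of the 12 markers 8 had a log2 fold change below 0, as had 8379 of the 16785 genes tested. No blood, epithelial or endothelial marker passed the filter (highest count in any library 11, 5 and 3).

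DNA in the nucleus is wrapped around histones, and the genes described here act on that packaging. Methyltransferases, demethylases, acetyltransferases and deacetylases add or remove chemical groups on histone tails, PRC2 marks silent genes with methylation of lysine 27 of histone H3, and SWI/SNF complexes use ATP to move or evict nucleosomes. In Ewing sarcoma the fusion protein EWS-FLI1 binds repeats of the sequence GGAA and is known to bring SWI/SNF and the acetyltransferase p300 to its activated sites, while the LSD1 and NuRD corepressors take part in repression, and EZH2 is a known target of the fusion.

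Promoters were read first, because EWS-FLI1 and the E2F factors of the cell cycle both have short recognition words. RefSeq promoters on GRCh38.p14, from 250 bases before to 50 after each start, were held for 51 of the 56 genes, with 81 promoters among them. For E2F the word TTTCCCG was searched, then its variant TTTCGCG, then the word TTTGCCG, and last its variant TTTGGCG. For EWS-FLI1 the word searched was GGAAGGA, a short stretch of a GGAA repeat. Both strands were read for each. Matches to the E2F words can overlap, as they do in the promoter of EZH1. An E2F word occurred for 12 of the 51 genes (23.5%) and for 16.0% of the 10982 tested genes with a promoter. By promoter, it was found in 14.8% of the 81 promoters and in 8.67% of all 35116 promoters. The GGAA word occurred for 8 genes (15.7%), against 15.5% of tested genes, and in 9.88% of the 81 promoters, against 11.6% of all promoters. Of the 9 members that passed the test below, SUZ12 was the only one with an E2F word in its promoter and HDAC9 the only one with the GGAA word, so their windows are shown, with EZH2, the catalytic partner of SUZ12, beside them. Capitals mark the word as read on the strand of the gene (in HDAC9 it is the reverse complement of GGAAGGA).
SUZ12, chr17:31936808-31936834, plus strand: gacccctaatTTTCCCGcgaattcagt
EZH2, chr7:148884274-148884300, minus strand: ggctgccgcgTTTGGCGctcggtccgg
HDAC9, chr7:18086582-18086608, plus strand: ctcccgcgcgTCCTTCCcagcgcgtcg
HDAC9, chr7:18086701-18086727, plus strand: tcgccgcgggTCCTTCCtcctatcccc
The word in SUZ12 began 189 bases before the start and that in EZH2 at base 2 after it, while the pair in HDAC9 began 233 and 114 bases before the start. A match describes the letters in this window and is not evidence of binding.

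Of the 54 tested genes, 9 passed an edgeR adjusted p under 0.05, which is 16.7% of them beside 17.3% of all 16785 genes tested (edgeR quasi-likelihood test, Benjamini-Hochberg adjustment over all genes). Members were thus called about as often as genes in general. Of the 9 genes, KDM7A, HDAC9, KDM6B, KDM4A and SMARCB1 were higher after EHD1 knockdown (8.59% of all genes were called higher), and KDM4B, SUZ12, EHMT2 and ARID1A were lower (8.75% of all genes were called lower). A change of 2-fold or more besides the adjusted p was reached by KDM4B alone, and by 2.82% of all genes. The libraries of the 2 groups did not overlap for 25 members (46.3%), 15 of them higher and 10 lower, and for 39.3% of all genes. The members had a median of 0.02 on the log2 scale, beside 0.00 over all genes, and their median absolute log2 fold change was 0.17, beside 0.23. A log2 fold change within 0.25 of 0 was measured for 37 of the 54 members (68.5%) and for 52.7% of all genes.

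**Figure D1:**
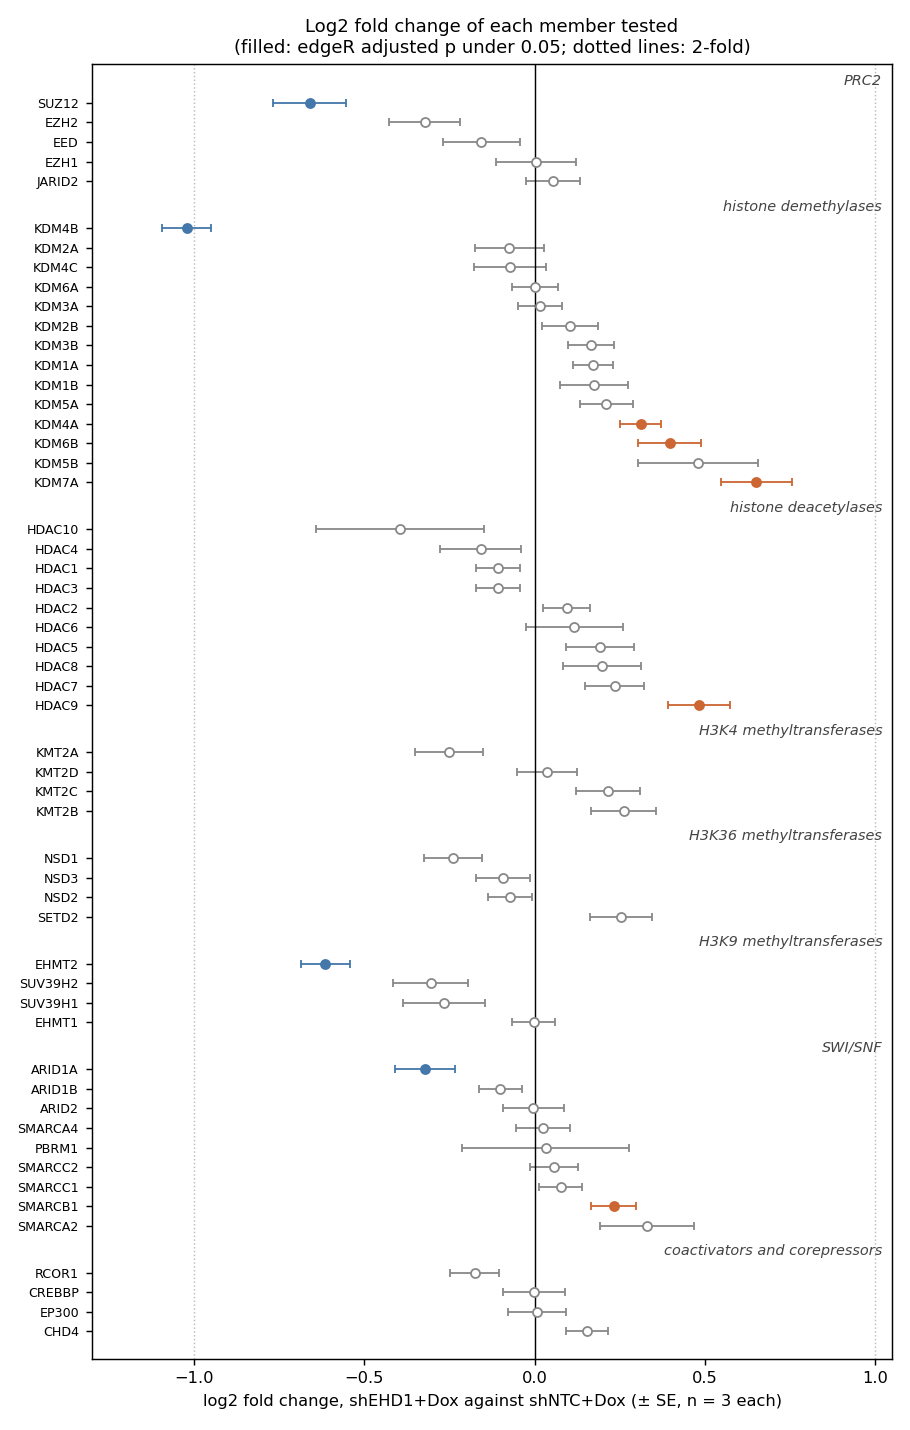
Log2 fold change (shEHD1+Dox against shNTC+Dox) of the 54 tested genes by role, with bars for 1 SE and filled points for an edgeR adjusted p under 0.05. KDM4B, at -1.02, lies past the dotted line of a 2-fold change, and 37 of the genes lie within 0.25 of 0.

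One control library stood apart for these genes. For 43 of the 54 members (79.6%) shNTC+Dox replicate 3 was the control library farthest from the other controls, as it was for 58.2% of all genes. In the knockdown group replicate 2 was the farthest for 29 members (53.7%), beside 48.8% of all genes. Of a list of 24 S phase genes, 16 were called lower and none higher, beside 8.75% and 8.59% of all genes. PCNA and E2F1 had log2 fold changes of -1.05 and -1.09 (edgeR adjusted p = 0.00444 and 0.00582). The list followed the same libraries. Its mean log2 CPM was taken relative to the mean of each gene over all libraries. This mean was 0.18, 0.13 and 0.55 in the control libraries and -0.45, -0.07 and -0.34 in the knockdown libraries. The number of members called depended on the library left out. Without shNTC+Dox replicate 1, 2 or 3 the members called were 6, 7 and 16, beside 10.4%, 12.5% and 21.8% of all genes. Without shEHD1+Dox replicate 1, 2 or 3 they were 5, 10 and 6, beside 8.15%, 12.5% and 8.05% of all genes. With all libraries kept, the DESeq2 Wald test called 13 members and 21.2% of all genes, edgeR with the replicate number as a block called 6 members and 10.5% of genes, and edgeR called 9 members and 17.2% with DESeq2 size factors, 9 and 8.35% with no filter, and 10 and 21.1% with 10 counts asked of every library. Values without shNTC+Dox replicate 3 are given below for the genes whose call it decides.

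In PRC2, SUZ12 fell and the other 4 subunits did not pass the test. SUZ12 (ENSG00000178691, chr17:31937007-32001038, plus strand), the zinc finger subunit that the complex needs for its activity, measured 86.1, 86.5 and 99.6 CPM in the controls and 54.1, 66.4 and 51.8 CPM after knockdown. The groups were far from overlapping, and the level fell from 90.7 ± 7.67 to 57.4 ± 7.84 CPM (SD, n = 3), or to 63.3% of control. Its log2 fold change was -0.66 (SE 0.11, edgeR adjusted p = 0.00454). The highest control library of SUZ12 and its highest knockdown library were also the highest of their groups for the S phase genes, and the part of that difference in the SUZ12 result was not tested. Reads of SUZ12 can be shared with its pseudogene SUZ12P1, which stood at 7.84 to 8.99 CPM in the controls and 6.50 to 7.14 CPM after knockdown (log2 fold change -0.33, edgeR adjusted p = 0.122).

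EZH2, the main methyltransferase of PRC2, measured 70.9, 69.2 and 89.8 CPM in the controls and 59.5, 63.6 and 60.5 CPM after knockdown. Every knockdown library was below every control, but shNTC+Dox replicate 3 was well above its group, and the difference, -0.32 on the log2 scale (SE 0.10), gave an edgeR adjusted p of 0.0637. Without that library the log2 fold change was smaller, -0.20, and the edgeR adjusted p was 0.0483. On all libraries the DESeq2 Wald test gave an adjusted p of 0.0295. With 10 counts asked of every library the edgeR adjusted p was 0.0491. The library order of EZH2 was also that of the S phase genes, and the part of this in its value was not tested. EED, which binds the mark that PRC2 makes, had a log2 fold change of -0.16, EZH1, the alternative methyltransferase, 0.00, and JARID2, which helps to place the complex on DNA, 0.05 (edgeR adjusted p = 0.377, 0.986 and 0.688). The median of the 5 subunits was -0.16 on the log2 scale.

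Histone demethylases held both the largest fall and the largest rise of the 54 genes. Of the 14 tested, 11 had a log2 fold change above 0, as had 8406 of all 16785 genes tested. Among these 11, KDM6A and KDM3A stood at 0.00 and 0.02 and changed sign under some alternatives. Within the KDM4 family, which removes methyl groups from lysines 9 and 36 of histone H3, KDM4A rose, KDM4B fell and KDM4C did not pass the test. KDM4B (ENSG00000127663, chr19:4969113-5153598, plus strand) measured 43.5, 43.3 and 42.4 CPM in the controls and 21.4, 20.5 and 21.7 CPM after knockdown. The replicates lay very close together within each group, and the level fell from 43.1 ± 0.58 to 21.2 ± 0.609 CPM (SD, n = 3), 49.3% of control. Its log2 fold change was -1.02 (SE 0.07, edgeR adjusted p = 1.38e-04), and only without shEHD1+Dox replicate 2 was it just inside 2-fold, at -0.998.

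KDM4A (ENSG00000066135, chr1:43650149-43705518, plus strand) went the other way: 104, 104 and 99.9 CPM in the controls against 129, 128 and 125 CPM after knockdown. Averages were 103 ± 2.40 and 127 ± 2.38 CPM (SD, n = 3), higher by 0.31 on the log2 scale (SE 0.06, edgeR adjusted p = 0.00965). Without shEHD1+Dox replicate 1 the edgeR adjusted p was 0.0514. KDM4A shares 2086 exonic bases on its strand with the transcript AL451062.4, which had 0 to 28 counts, and 473 on the other strand with KDM4A-AS1, which had 100 to 159 counts. Summed over all 3 genes, the difference was 0.29 on the log2 scale (edgeR adjusted p = 0.0144). KDM4C measured 15.3 to 17.6 CPM in the controls and 14.9 to 16.6 CPM after knockdown (edgeR adjusted p = 0.686).

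The demethylases of lysine 27 of histone H3, which undo the mark of PRC2, are KDM6A, KDM6B and KDM7A in this set, and KDM7A also acts on lysine 9. KDM7A (ENSG00000006459, chr7:140084746-140176983, minus strand) had the largest rise of any member. It measured 27.4, 27.8 and 34.7 CPM in the controls and 48.4, 48.8 and 43.9 CPM after knockdown, which did not overlap although replicate 3 was the closest to the other group on both sides. Averages were 30.0 ± 4.08 and 47.1 ± 2.71 CPM (SD, n = 3), higher by 0.65 on the log2 scale (SE 0.10, edgeR adjusted p = 0.00442).

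KDM6B (ENSG00000132510, chr17:7834217-7854796, plus strand) measured 18.7, 19.3 and 16.9 CPM in the controls and 24.02, 23.5 and 24.7 CPM after knockdown. Averages were 18.3 ± 1.26 and 24.1 ± 0.609 CPM (SD, n = 3), higher by 0.40 on the log2 scale (SE 0.09, edgeR adjusted p = 0.0205). This call was lost without shEHD1+Dox replicate 1, shEHD1+Dox replicate 3 or shNTC+Dox replicate 1 (edgeR adjusted p = 0.0761, 0.0880 and 0.0592) and with the replicate number as a block (0.0621). Its X-linked relative KDM6A lay between 45.8 and 48.6 CPM in all 6 libraries (log2 fold change 0.00, edgeR adjusted p = 0.995).

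The demethylases of lysine 4 of histone H3 did not pass the test. KDM5B measured 75.0, 78.0 and 46.9 CPM in the controls and 98.5, 88.8 and 91.9 CPM after knockdown. All knockdown libraries were above all controls, yet the low value of shNTC+Dox replicate 3 gave a wide error (log2 fold change 0.48, SE 0.18, edgeR adjusted p = 0.104). Without that library the log2 fold change was 0.28 and the edgeR adjusted p 0.0146, and the DESeq2 Wald test on all libraries gave an adjusted p of 0.0243. KDM1A, or LSD1, measured 245, 249 and 253 CPM in the controls and 277, 280 and 284 CPM after knockdown, groups that did not overlap (log2 fold change 0.17, SE 0.06, edgeR adjusted p = 0.0765). KDM1A had an edgeR adjusted p of 0.0419 without shNTC+Dox replicate 3. KDM5A and KDM1B had log2 fold changes between 0 and 0.25 (edgeR adjusted p = 0.0959 and 0.263). KDM2A, KDM2B, KDM3A and KDM3B, which act on lysines 36 and 9, had edgeR adjusted p-values from 0.125 to 0.893.

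**Figure D2:**
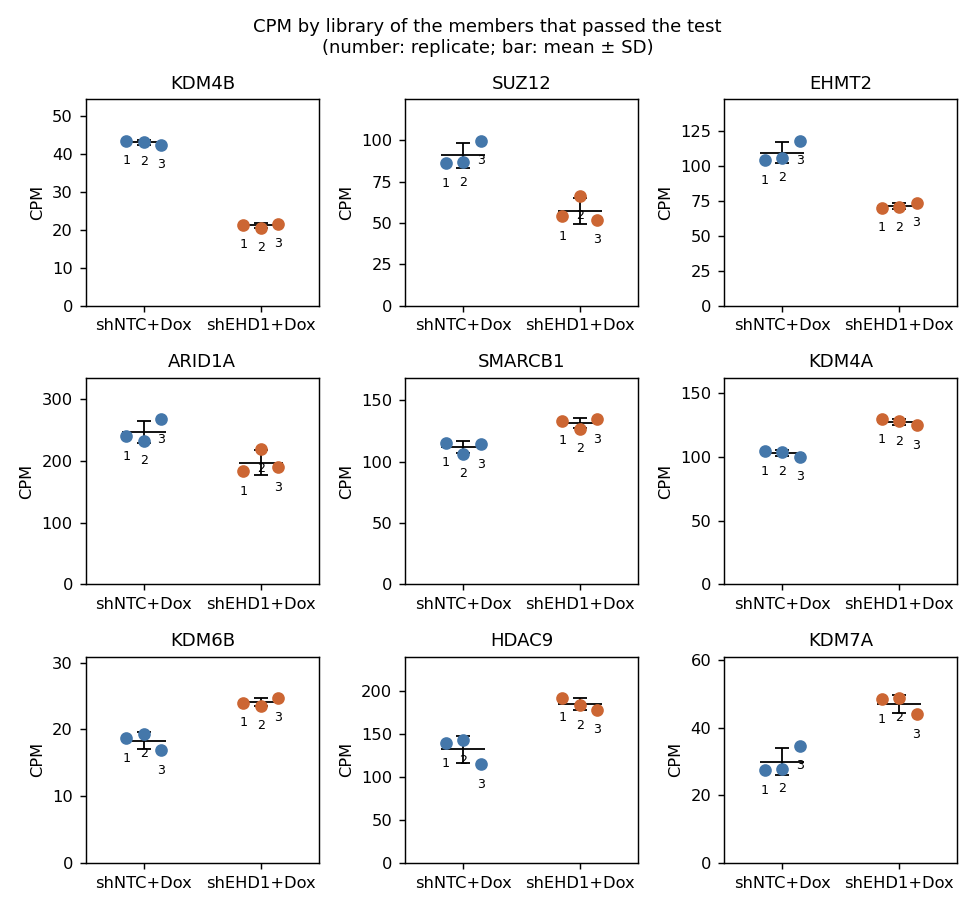
CPM in each library of the 9 members that passed the test, with the replicate number under each point and bars for the mean ± SD (n = 3). In every panel the 3 shEHD1+Dox points lie on one side of the 3 shNTC+Dox points, from KDM4B at 43.1 against 21.2 CPM to KDM7A at 30.0 against 47.1 CPM. The 9 members were picked by the test on these same libraries, so their separation is not a further result. The groups did not overlap for 39.3% of all genes.

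Of the histone deacetylases, HDAC9 rose and the other 9 tested did not pass the test. HDAC9 (ENSG00000048052, chr7:18086949-19002416, plus strand), a class IIa enzyme that binds MEF2 factors and represses their targets, measured 139, 142 and 114 CPM in the controls and 192, 183 and 178 CPM after knockdown. The lowest knockdown library was above the highest control, and the mean rose from 132 ± 15.3 to 184 ± 6.86 CPM (SD, n = 3). Its log2 fold change was 0.48 (SE 0.09, edgeR adjusted p = 0.00820). The other class IIa genes had log2 fold changes of smaller size, with edgeR adjusted p-values of 0.396 for HDAC4, 0.219 for HDAC5 and 0.0992 for HDAC7. HDAC5 shares 1826 exonic bases on the other strand with G6PC3, which had 943 to 1602 counts. Summed with the genes that share their exonic bases, HDAC4, HDAC5 and HDAC7 had log2 fold changes of -0.14, 0.21 and 0.26 (edgeR adjusted p = 0.435, 0.0701 and 0.0516).

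The class I genes HDAC1, HDAC2 and HDAC3, the catalytic subunits of the NuRD, SIN3, CoREST and NCoR corepressors, lay close to control. HDAC1 measured 238, 243 and 224 CPM in the controls and 210, 223 and 221 CPM after knockdown, and HDAC2 210 to 232 and 225 to 248 CPM (edgeR adjusted p = 0.284 and 0.384). HDAC3 was at 59.5 to 62.1 CPM and 56.1 to 56.8 CPM, groups that did not overlap, with an edgeR adjusted p of 0.281. HDAC8, HDAC6 and HDAC10 had edgeR adjusted p-values of 0.276, 0.617 and 0.309. HDAC10 was the least counted of the tested members, at 4.84 to 9.72 CPM in the controls and 5.27 to 6.59 CPM after knockdown, and it shares 2763 exonic bases on its strand with MAPK12, so its value is uncertain. The median over the 10 tested deacetylases was 0.11 on the log2 scale.

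Of the methyltransferases for lysine 9 of histone H3, EHMT2 fell. The log2 fold changes of all 4 were below 0 (median -0.29), as were those of 8379 of the 16785 genes tested. EHMT2 (ENSG00000204371, chr6:31879759-31897698, minus strand), also called G9a, measured 104, 106 and 118 CPM in the controls and 70.2, 70.4 and 73.8 CPM after knockdown. The groups were well apart, and the level fell from 109 ± 7.53 to 71.5 ± 2.01 CPM (SD, n = 3), 65.3% of control. The log2 fold change was -0.61 (SE 0.07, edgeR adjusted p = 0.00115). EHMT1, which pairs with EHMT2 in one heteromeric enzyme, measured 74.6, 72.5 and 75.0 CPM in the controls and 71.9, 75.8 and 74.1 CPM after knockdown, overlapping groups that differed by 0.00 on the log2 scale (SE 0.06, edgeR adjusted p = 0.987).

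SUV39H1 and SUV39H2, which trimethylate the same lysine in constitutive heterochromatin, had log2 fold changes of -0.27 and -0.31 (edgeR adjusted p = 0.162 and 0.0908). SUV39H1 measured 44.1, 45.4 and 57.4 CPM in the controls and 37.1, 45.5 and 39.5 CPM after knockdown, and SUV39H2 31.7, 33.0 and 39.9 and then 25.7, 30.7 and 28.2 CPM. Both were highest in shNTC+Dox replicate 3 and, within the knockdown, in replicate 2, the order also seen for the S phase genes, and whether the cell cycle has a part in their values was not tested.

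None of the 4 methyltransferases for lysine 4 passed the test. KMT2A, known as MLL1, measured 207, 208 and 165 CPM in the controls and 160, 174 and 154 CPM after knockdown. KMT2B, its closest relative, measured 53.6, 54.5 and 66.5 CPM in the controls and 69.9, 73.2 and 66.2 CPM after knockdown. For both genes shNTC+Dox replicate 3 lay within the knockdown group and the other controls outside it. Their log2 fold changes were -0.25 and 0.26 (edgeR adjusted p = 0.114 and 0.0937), and without that library -0.35 and 0.37 (edgeR adjusted p = 0.00456 and 0.00420). KMT2C and KMT2D, which methylate lysine 4 at enhancers, had log2 fold changes of 0.21 and 0.04 (edgeR adjusted p = 0.154 and 0.810).

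The 4 methyltransferases for lysine 36 did not pass the test either. SETD2, which makes the trimethyl mark over transcribed genes, measured 106, 109 and 116 CPM in the controls and 123, 150 and 121 CPM after knockdown, which did not overlap (log2 fold change 0.25, SE 0.09, edgeR adjusted p = 0.0904). NSD1, which makes the dimethyl mark, measured 213, 202 and 183 CPM and then 159, 186 and 162 CPM (log2 fold change -0.24, SE 0.09, edgeR adjusted p = 0.0873). The edgeR adjusted p of NSD1 was 0.0202 without shNTC+Dox replicate 3 and 0.0439 without shEHD1+Dox replicate 2. NSD2 and NSD3 had log2 fold changes of -0.07 and -0.09 (edgeR adjusted p = 0.478 and 0.460).

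**Figure D3:**
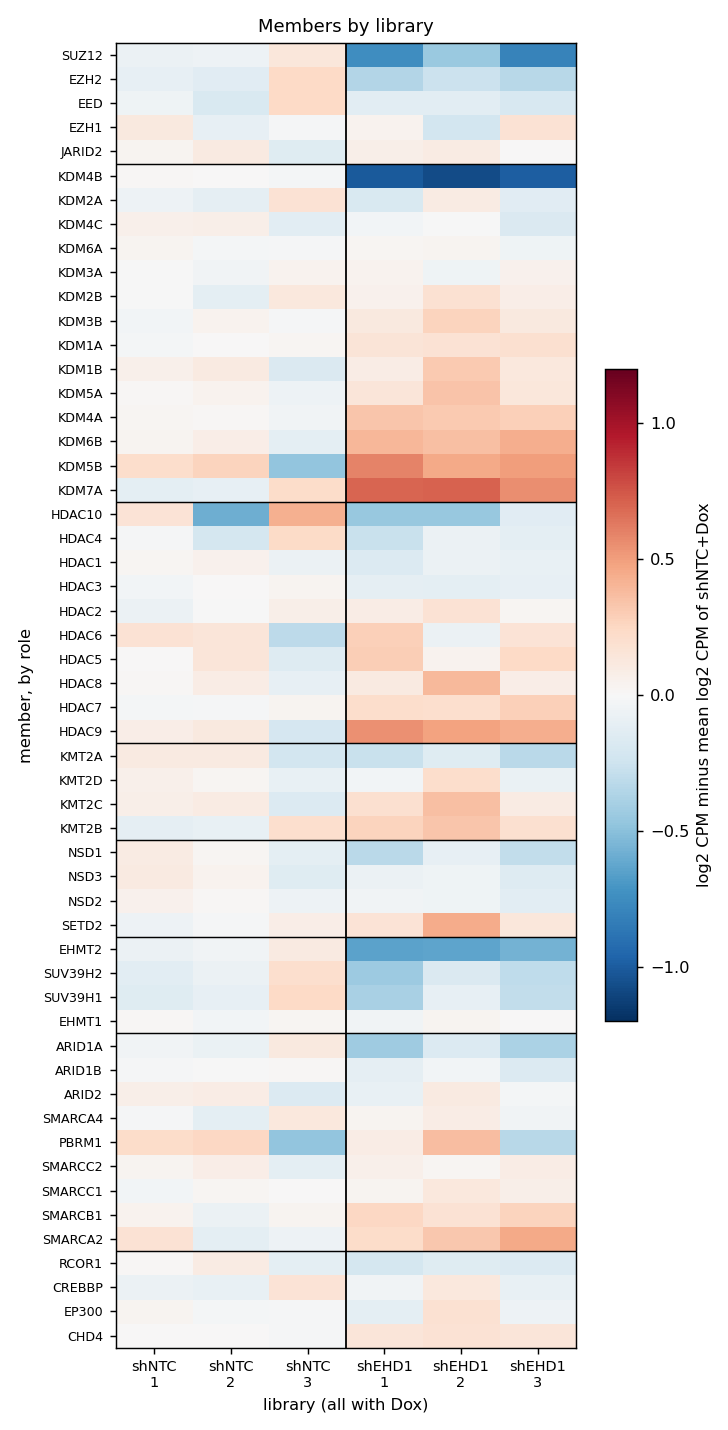
Log2 CPM of each tested member in the 6 libraries, minus its mean log2 CPM in shNTC+Dox, with members grouped by role. The largest log2 fold changes are the falls of KDM4B (-1.02), SUZ12 (-0.66) and EHMT2 (-0.61) and the rise of KDM7A (0.65). The column of shNTC+Dox replicate 3 is the control farthest from the others for 43 of the 54 genes.

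Differences among the SWI/SNF subunits were small: SMARCB1 rose, ARID1A fell, and 7 of the 9 subunits had a log2 fold change within 0.25 of 0. SMARCB1 (ENSG00000099956, chr22:23786931-23838009, plus strand), a core subunit lost in rhabdoid tumours, measured 115, 106 and 114 CPM in the controls and 133, 127 and 134 CPM after knockdown. Averages were 112 ± 4.95 and 131 ± 4.25 CPM (SD, n = 3), higher by 0.23 on the log2 scale (SE 0.07, edgeR adjusted p = 0.0408). The call was lost without shEHD1+Dox replicate 1 or 3 or shNTC+Dox replicate 1 or 2 (edgeR adjusted p = 0.138, 0.144, 0.0887 and 0.137) and with the replicate number as a block (0.0801).

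ARID1A (ENSG00000117713, chr1:26693236-26782104, plus strand), the DNA-binding subunit of the canonical complex, measured 240, 233 and 267 CPM in the controls and 183, 220 and 189 CPM after knockdown. Averages were 247 ± 18.3 and 197 ± 19.7 CPM (SD, n = 3), a difference of -0.32 on the log2 scale (SE 0.09, edgeR adjusted p = 0.0383). This call was also lost without shEHD1+Dox replicate 1 or 3 or shNTC+Dox replicate 1 or 2 (edgeR adjusted p = 0.145, 0.136, 0.0764 and 0.0532) and with the block (0.0811). The library order of ARID1A followed that of the S phase genes, and the part of this in its value was not tested.

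The ATPases SMARCA4 and SMARCA2 had log2 fold changes of 0.02 and 0.33 (edgeR adjusted p = 0.867 and 0.133). SMARCA4, at 292 to 346 CPM in the controls, exceeded SMARCA2, at 7.15 to 8.70 CPM, in every library. The scaffold subunits SMARCC1 and SMARCC2 and the subunits ARID1B and ARID2 had edgeR adjusted p-values from 0.309 to 0.983. PBRM1, which defines the PBAF form of the complex, measured 83.1, 85.1 and 51.5 CPM in the controls and 76.2, 92.3 and 56.6 CPM after knockdown. Replicate 3 was the lowest library of PBRM1 in both groups, and the SE of its log2 fold change, 0.24, was wider than that of the other subunits (log2 fold change 0.03, edgeR adjusted p = 0.944).

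The coactivators and corepressors did not pass the test. The acetyltransferases EP300 (p300) and CREBBP had log2 fold changes of 0.01 and 0.00 (SE 0.09 for both, edgeR adjusted p = 0.973 and 0.992). RCOR1, the CoREST scaffold that partners LSD1, measured 440, 465 and 402 CPM in the controls and 376, 393 and 388 CPM after knockdown (log2 fold change -0.18, edgeR adjusted p = 0.129, and 0.0205 without shNTC+Dox replicate 3). CHD4, the NuRD ATPase, measured 713, 713 and 704 CPM in the controls and 783, 802 and 783 CPM after knockdown. Its groups did not overlap, and its log2 fold change was 0.15 (SE 0.06, edgeR adjusted p = 0.124). CHD4 shares 5964 exonic bases on its strand with AC006064.6, which had 856 to 1364 counts in the controls and 150 to 368 after knockdown, and 1295 on the other strand with AC006064.2, which had 20 to 31 counts. Summed over all 3 genes, the difference was 0.08 on the log2 scale (edgeR adjusted p = 0.403).

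Levels of different genes were set side by side as CPM per kb of the canonical transcript of GENCODE, which may not be the isoform these cells use. In the controls HDAC1 was the highest at 110.9 ± 4.59 CPM per kb, and CHD4, at 109.4 ± 0.798 CPM per kb, was within its spread. KDM1A (80.8 ± 1.37 CPM per kb), SMARCC1 (77.1 ± 1.71) and RCOR1 (75.8 ± 5.49) followed, with SMARCC1 and RCOR1 within their spread of each other. After knockdown CHD4, at 121.6 CPM per kb, stood above HDAC1, at 103.0 CPM per kb. CHD4 shares 5964 exonic bases on its strand with AC006064.6. Its order beside HDAC1 in either group therefore depends on how the shared reads were assigned. The lowest tested members in the controls were SMARCA2 (1.35 ± 0.144 CPM per kb), KDM6B (2.72 ± 0.188), HDAC10 (2.94 ± 0.967) and KDM7A (3.25 ± 0.443), so the largest rise among the members was measured on one of the lowest levels. HDAC1, CHD4, KDM1A and RCOR1, which belong to the LSD1, CoREST and NuRD corepressors, were thus among the 5 highest members per length. HDAC2, a catalytic subunit of the same corepressors, was at rank 14 with 22.7 CPM per kb in the controls. Its canonical transcript has 9737 bases and that of HDAC1 2118, while their mean control levels were 221 and 235 CPM.

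**Figure D4:**
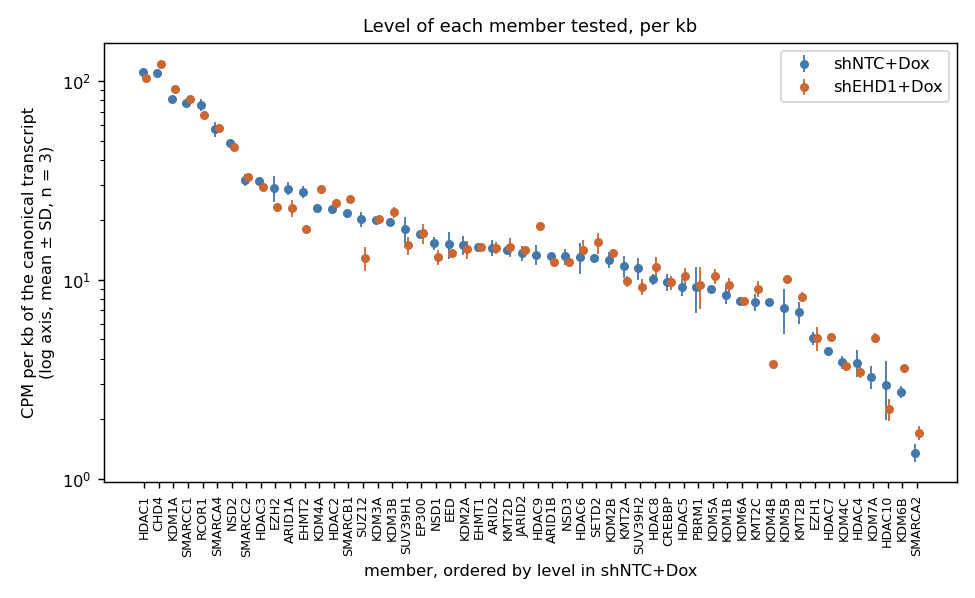
Level of each tested member in CPM per kb of its canonical transcript (log axis, mean ± SD, n = 3), ordered by the shNTC+Dox level, with shEHD1+Dox beside it. Levels run from 110.9 CPM per kb for HDAC1 to 1.35 CPM per kb for SMARCA2, and KDM4B is the pair of points farthest apart.

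Related enzymes were also compared within a library, as the log2 ratio of their counts per length, which does not depend on the scaling between libraries. For 6 of 15 pairs the ratios of the groups did not overlap. Each of these had an exact two-sided permutation p of 0.1, the smallest that 3 against 3 libraries can give. It was 0.25 after Benjamini-Hochberg adjustment over the 15 pairs, so none can pass 0.05. The CPM of single genes did not overlap for 39.3% of all genes, and the share over other pairs of genes was not computed. The ratios that hold EHMT2, KDM6B or ARID1A also repeat the calls of those genes and are not separate results. EHMT1 to EHMT2 had the largest shift, from -0.92 ± 0.087 to -0.31 ± 0.052 (log2 ratio, SD, n = 3): EHMT1 was at 0.529 of the EHMT2 level in the controls and at 0.808 of it after knockdown. KMT2A to KMT2B went from 0.76 ± 0.362 to 0.25 ± 0.029, where shNTC+Dox replicate 3, at 0.35, was close to the knockdown libraries and the other controls were at 0.98 and 0.96.

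KDM6A to KDM6B went from 1.52 ± 0.103 to 1.12 ± 0.081 on the log2 scale, a drop from 2.87 to 2.175 in the ratio itself. SMARCA4 to SMARCA2 went from 5.40 ± 0.183 to 5.09 ± 0.164, which puts the level of SMARCA4 at 42.2 and then 34.1 times that of SMARCA2. ARID1A to ARID1B went from 1.13 ± 0.091 to 0.90 ± 0.094, and KMT2C to KMT2D from -0.88 ± 0.074 to -0.69 ± 0.040. EZH2 to EZH1 overlapped between the groups (2.505 ± 0.239 and 2.19 ± 0.243, exact two-sided permutation p = 0.3). EP300 to CREBBP was at 0.82 in both groups, with an SD of 0.149 and 0.069.

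**Figure D5:**
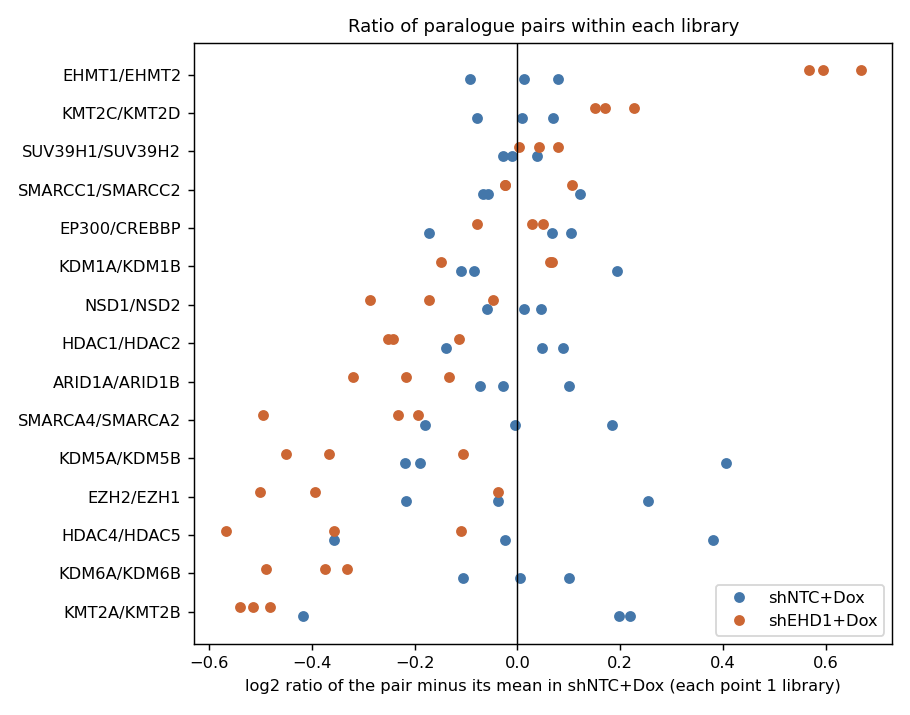
Log2 ratio of the counts per length of 15 pairs of related genes in each library, minus the mean ratio of the pair in shNTC+Dox. The points of the groups separate for 6 pairs, with EHMT1 to EHMT2 shifted by 0.61 and KMT2A to KMT2B by -0.51.

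Around these members, 10 lists of other chromatin genes held 157 genes, of which 154 were tested and 25 passed (16.2%), 12 higher and 13 lower, with a median log2 fold change of -0.01. This share too was close to the 17.3% of all genes. Among the genes listed as PRC2 accessory subunits 1 of 8 passed, LCOR, which rose by 0.41 on the log2 scale (edgeR adjusted p = 0.0167). Counts per gene do not tell which product of LCOR rose. In PRC1, the complex that ubiquitinates histone H2A, PCGF5 rose by 0.88 and CBX6 fell by 0.71 on the log2 scale (edgeR adjusted p = 0.00551 and 0.00120). PCGF5 measured 7.30, 7.66 and 5.69 CPM in the controls and 12.7, 13.7 and 11.6 CPM after knockdown, groups that did not overlap.

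Of 19 other histone methyltransferases 3 passed. KMT5A, which methylates lysine 20 of histone H4, measured 80.2, 79.7 and 96.7 CPM in the controls and 44.9, 45.2 and 44.8 CPM after knockdown (log2 fold change -0.93, edgeR adjusted p = 4.36e-04). DOT1L, which methylates lysine 79 of histone H3, measured 96.5, 92.2 and 116 CPM and then 55.98, 59.7 and 54.1 CPM (log2 fold change -0.85, edgeR adjusted p = 0.00100). SMYD5 rose by 0.28 on the log2 scale (edgeR adjusted p = 0.0356). Of the 10 listed subunits of the MLL complexes, counting menin, NCOA6 rose by 0.25 and PAXIP1 fell by 0.48 (edgeR adjusted p = 0.0317 and 0.0133).

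Of 17 histone acetyltransferases and their subunits 6 passed (35.3%, 4 higher and 2 lower), beside 17.3% of all genes. This was the highest share among the 10 lists, which together stood at 16.2%. The rank of 1 short list is not read as a trait of its genes. KAT6B measured 73.6, 71.0 and 65.5 CPM in the controls and 100.4, 106 and 97.8 CPM after knockdown (log2 fold change 0.54, edgeR adjusted p = 0.00218). KAT7 rose by 0.37, while KAT2A, the GCN5 enzyme of the SAGA complex, and ING5 fell by 0.76 and 0.38 (edgeR adjusted p = 0.00496, 0.00264 and 0.0271). None of 8 other JmjC proteins and none of 7 sirtuins passed (1 in each list had an unadjusted edgeR p under 0.05, as 32.3% of all genes did).

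Of 25 other subunits of deacetylase complexes, the NuRD genes CHD3 and GATAD2B fell by 0.36 and 0.32 on the log2 scale (edgeR adjusted p = 0.00985 and 0.0298) and no other passed. Of 19 further SWI/SNF genes 4 passed: SMARCD2 and BICRAL rose by 0.35 and 0.36, and BRD9 and BCL11B fell by 0.60 and 0.75 (edgeR adjusted p = 0.00982, 0.0356, 0.00101 and 0.00120). BRD9 defines the non-canonical form of the complex and measured 46.0, 43.9 and 46.2 CPM in the controls and 30.3, 29.6 and 29.9 CPM after knockdown. Of 22 other ATP-dependent remodelers 4 passed, with BAZ2A and SMARCA1 higher by 0.64 and 0.54 and BAZ1B and CHD1L lower by -1.05 and -0.51 (edgeR adjusted p = 0.00118, 0.00521, 0.00121 and 0.00123). BAZ1B, a subunit of the WICH remodeler, measured 249, 250 and 292 CPM in the controls and 111, 152 and 118 CPM after knockdown, again with the highest values in shNTC+Dox replicate 3 and shEHD1+Dox replicate 2.

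The members listed at 0 were KDM5C on chromosome X and HDAC11 on chromosome 3. Both neighbour other genes listed at 0: IQSEC2 beside KDM5C, and NUP210 and FBLN2 beside HDAC11. KANTR and SMC1A, which flank the stretch at KDM5C, had 428 to 548 and 9320 to 10874 counts. Whether a 0 here is a failed estimate was not tested, and no statement on the expression of KDM5C or HDAC11 follows from it.

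A list of 5 fibroblast markers, all of which passed the filter, had a summed level of 257 to 343 CPM in the controls and 448 to 512 CPM after knockdown, most of it COL3A1 (log2 fold change 0.89), while DCN fell by 1.01 on the log2 scale (edgeR adjusted p = 7.32e-04 and 0.00778). Its part in the members' values was not tested. All samples were cultures of TC71 cells, so these genes are not read here as a share of fibroblasts. In bulk samples a change in the number of cells that express a gene and a change in its RNA per cell cannot be told apart.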

How the data were processed

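RNA of the 6 libraries was sequenced as paired ends from TruSeq RNA v2 libraries, a kit that does not keep strand, so reads of a gene and of a partner on the other strand cannot be separated. The deposited values were raw whole-number counts for each gene. The submitters' processing notes name STAR 2.7.3a, DESeq2 and hg38, while the study's methods name hisat2 and StringTie with Ensembl annotation; how the counts were derived is not given in the sources used here. Gene coordinates, exons and canonical transcripts came from GENCODE 44 (60357 of the identifiers, 99.5%, were found) and promoters from RefSeq on GRCh38.p14.

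Samples were grouped by their shRNA label. The tool was edgeR 4.0.16 in R 4.3.3, with TMM normalization, a robust glmQLFit and glmQLFTest. A gene was tested if 3 or more libraries had 10 or more counts, which 16785 genes met, and p-values were adjusted over these by Benjamini-Hochberg. A call needed an adjusted p under 0.05. CPM used TMM-scaled library sizes. The SE of a log2 fold change was calculated back from the test, as its size divided by the square root of the quasi-likelihood F statistic. The fit was tested on simulated data.

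The members, gene lists, pairs and motifs were chosen with earlier results of these data known. Members were all accounted for, with full statistics for those called; of other genes, EHD1 and, per list, the 2 genes with the smallest adjusted p in each direction were named, except for a result that is not reported here. PAX7 was named after its values were seen. Alternatives were DESeq2 size factors, no filter, 10 counts in every library, the DESeq2 1.42.0 Wald test, a block for the replicate number, leaving out each library and, for pair ratios, 0.5 added to counts. The sum with genes sharing exons was added after the data were seen. Same-numbered libraries did not deviate together (correlations 0.072, -0.059 and -0.045), so the main fit had no block. Replicates of a group differed by more than sampling noise. Depth was 22711235 to 30582187 counts per library. No molecular identifiers were counted, so reads may repeat molecules.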

Additional observations from a re-analysis of the deposited data

How the results depend on the processing

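No called member changed direction under the alternatives run, while 14 members that were not called, with a log2 fold change of at most 0.12 in size, changed sign under at least 1, the farthest being PBRM1 (-0.17 without shNTC+Dox replicate 3). EHMT2, HDAC9, KDM4B, KDM7A and SUZ12 kept their call under all 11 alternatives. The 9 members called became 5 to 16 when 1 library was left out (5 without shEHD1+Dox replicate 1 and 16 without shNTC+Dox replicate 3); the 5 higher became 2 to 8 and the 4 lower 3 to 8, and the 1 member past 2-fold became 0 to 1. The DESeq2 Wald test called 8 members higher, adding CHD4, KDM1A and KDM5B, and 13 in all, with EZH2 added among the lower. Same-numbered libraries share only a number, and with the replicate block 3 members were higher, 6 were called in all, and 1766 of all genes in place of 2910. Over all genes the calls ran from 1322 to 3616 with 1 library left out (1713 without shNTC+Dox replicate 1, 1341 without shEHD1+Dox replicate 1, 1322 without shEHD1+Dox replicate 3). The 6 pairs with separate ratios became 6 to 11 (11 without shNTC+Dox replicate 3). Fits without 1 library have fewer samples; other causes were not tested. The block gave 7 pairs with all 3 same-numbered differences of 1 sign. EHD1 stayed between -1.88 and -1.68 on the log2 scale. With 1 library left out, the log2 fold change ran from 0.19 to 0.26 for SMARCB1 and from -0.41 to -0.26 for ARID1A, while the call was lost under 4 of the 6 omissions for each.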
